A study of Homo sapiens with 24 samples.

Results

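The RNA lost by control cells in the first 3 h of actinomycin D was examined in 4 of the 24 libraries of the study, namely siControl at 0 h and siControl at 3 h with 2 libraries each. The libraries were taken by their labels alone, and no measured value entered the choice. HepG2 is an established human liver cancer line of epithelial shape. Both groups carried the same negative control siRNA (AllStars), and each transfected plate was split so that plates held similar numbers of cells. The 3 h cells had actinomycin D at 5 μg per ml for the last 3 h, and the 0 h cells had the drug for no time before collection. The other libraries, siControl at 6 h and cells with siRNA against IGF2BP1, IGF2BP2 or IGF2BP3 (RNA-binding proteins of 1 family) at 0, 3 and 6 h, are used below only for comparison. All cells are of 1 transformed line, so the values describe that line and no normal hepatocyte.

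Actinomycin D binds DNA and stops the RNA polymerases. Once synthesis is blocked, the amount of a transcript falls at the rate at which the cell degrades it. Most mRNAs are degraded after their poly(A) tail has been shortened, by removal of the cap and digestion from the 5' end or by the exosome from the 3' end. Messages for transcription factors, feedback inhibitors and signalling proteins are known to be short-lived, many of them through AU-rich elements in the 3' untranslated region (3' UTR), whereas messages for ribosomal, metabolic and secreted proteins are known to be long-lived.

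Each library held 40733196 to 74252042 reads in gene rows and 67981 to 111422 reads of ERCC, the synthetic RNA added in proportion to total RNA. Levels are given as reads per 1000 ERCC reads and fold changes on that scale, so that a fall is a loss per unit of total RNA and not per cell. Gene reads per ERCC read were 762 and 666 in the 0 h libraries and 599 and 597 in the 3 h libraries. The 3 h libraries held 83.8% ± 0.243 (SD, n = 2) of the 0 h mean, and both lay below both 0 h libraries (exact permutation p = 0.33, two-sided, the smallest that 2 against 2 libraries can give). Here and below, the ± of a share left is the SD of the 3 h libraries over a fixed 0 h mean. It leaves out the spread of the 0 h libraries, whose SD was 9.43% of their mean here. The 0 h libraries differed from each other by 0.19 on the log2 scale and the 3 h libraries by 0.0059, and this difference in scale is shared by every gene. All 12 hepatocyte lineage markers were above a CPM of 1 at 0 h, CPM being reads scaled to a common library size. The summed level of 8 fibroblast markers was 8.72 to 10.4 CPM, mostly PDGFRB, that of 8 blood cell markers 1.59 to 2.41 CPM and that of 7 endothelial markers 1.89 to 2.70 CPM over the 4 libraries. For 6 markers of kidney and neural lines it was at most 0.123 CPM.

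Of 13136 genes tested with edgeR, 8053 (61.3%) fell and 119 (0.906%) rose between 0 and 3 h at an adjusted p under 0.05, and 4964 did not pass the test in either direction. The median change was -0.44 on the log2 scale, with quartiles of -0.99 and -0.13, which left 73.9% of the median transcript. At most 10% of the RNA was left for 216 genes (1.64%), at most 25% for 1079 (8.21%) and at most 50% for 3253 (24.8%). Over 90% was left for 3569 genes (27.2%). Both 3 h libraries lay below both 0 h libraries for 9490 genes, 72.2% of those tested. The split between falls and rises rests on the ERCC scale. With TMM, a scale under which the typical gene is held constant, the median shifted by 0.45 and 4508 genes fell while 4565 rose. The classes below are therefore also described by their distance from the median of all genes. The count of rises was also set by single libraries, since 360 genes rose without the first 0 h library, 40 without the second, 56 without the first 3 h library and 55 without the second.

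**Figure D1:**
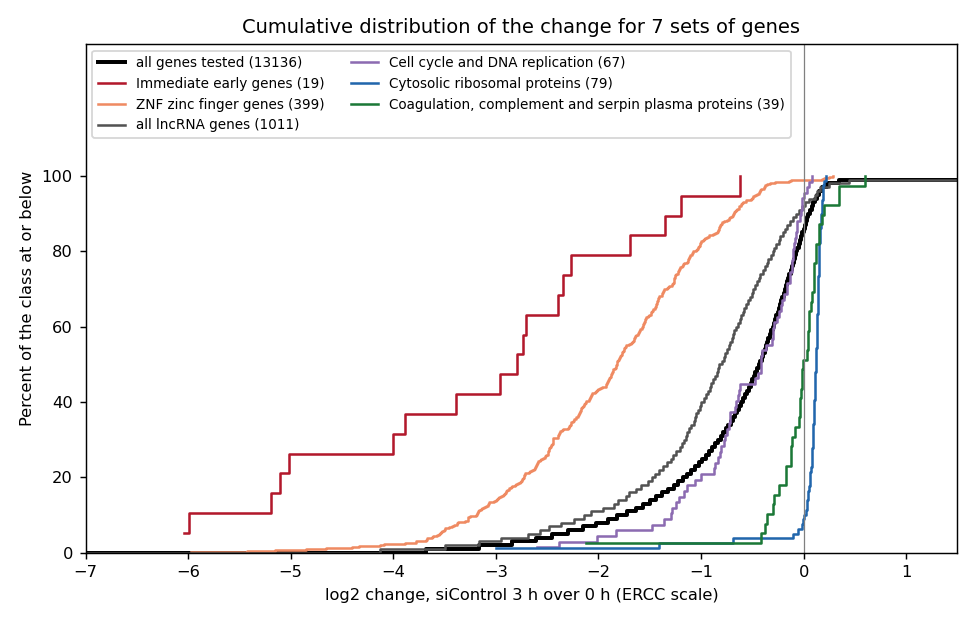
Cumulative share of genes (vertical axis, percent) at or below each log2 change from siControl 0 h to 3 h (horizontal axis, ERCC scale) for all genes tested and 6 classes, with the number of genes in parentheses. The curve of the immediate early genes lies farthest left with a median of -2.79, all genes are centred on -0.44, and the ribosomal protein curve is almost vertical at 0.12.

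Among coding genes whose mean CPM reached 5, 15 with the largest falls were named. CITED2, a transcriptional coregulator that binds CBP and p300, stood at 52.2 and 43.0 reads per 1000 ERCC reads at 0 h and at 0.544 and 0.662 at 3 h. Its 3 h libraries were together at 1.27% ± 0.175 of the 0 h mean (SD, n = 2), the lowest share among the 15 coding falls named by rule, and its change was -6.29 (SE 0.15). IER3, an early response gene that modulates apoptosis, went from 9.18 and 7.73 to 0.132 and 0.130. DUSP6, the phosphatase that switches off ERK, went from 36.3 and 31.2 to 0.662 and 0.591. In each of these genes the gap between the time points was far wider than the spread within a time point. The rule that named them asked for large falls with separated libraries, so this gap is no separate support. NFKBIA, the inhibitor that holds NF-kB in the cytoplasm, had 84.0 and 75.4 at 0 h and 1.84 and 1.62 at 3 h, which was 2.17% ± 0.195 left. MYC, the growth-promoting transcription factor, had 121 and 107 at 0 h and 3.19 and 3.11 at 3 h, which was 2.76% ± 0.0516 left. MYC was the most abundant of the 15 at 0 h, so its small remainder was counted with more reads than that of the others.

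The other 10 of the 15 were TRIB1, ZNF503, BAMBI, DDIT4, CSRNP1, EGR1, ZFP36, ADM, BHLHE40 and TIPARP. Their changes ran from -6.01 for TRIB1 to -4.78 for TIPARP, with 1.58% to 3.65% of the 0 h level left. The highest adjusted p among all 15 was 7.29e-86 (edgeR), in genes picked for large falls that passed this test. TRIB1 is a pseudokinase that brings C/EBP factors to degradation, BAMBI a decoy receptor of the TGF-beta family, and DDIT4 an inhibitor of mTORC1. ADM, which encodes the vasodilator peptide adrenomedullin, was the only secreted ligand among them. Under first-order decay the shares correspond to an apparent half-lifetime of 0.476 h for CITED2, 0.522 h for DUSP6, 0.579 h for MYC and 0.628 h for TIPARP. These values average over the 3 h, and a pair of time points cannot show whether the loss was exponential.

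Stretches of some of these 3' UTRs are shown because AU-rich elements are the best known signal for rapid mRNA decay. Of the 15 coding falls, 13 held at least 1 ATTTA and 3 (CSRNP1, ZFP36 and TIPARP) held the longer word TTATTTATT. Over all coding genes with a 3' UTR the shares were 72.8% and 9.40%, and 82.5% and 13.7% among the 1137 with the largest losses. DDIT4 and BHLHE40 held neither. The stretches of 27 bases below are those with the most such words in each 3' UTR, taken from the canonical transcripts of GENCODE on GRCh38 (hg38), 5' to 3' on the transcript's strand. Capitals mark ATTTA, and runs of capitals are overlapping copies. The stretches shown were selected and all hold more than 1 copy. Those of CITED2, DUSP6, NFKBIA, EGR1 and ADM, with 1 copy each, and of BAMBI, with 2, are not shown. No stretch was taken for MYC and TRIB1. FOS is not among the 15 and was added.
IER3 (chr6:30743649-30743675, minus strand): attaatATTTAtatgtATTTAtgtacg
ZNF503 (chr10:75398412-75398438, minus strand): gacactggtATTTATTTAtgttagctc
CSRNP1 (chr3:39142888-39142914, minus strand): attctctggATTTATTTAtttgtttta
ZFP36 (chr19:39409189-39409215, plus strand): ctttATTTAtgacgactttATTTAttc
TIPARP (chr3:156705516-156705542, plus strand): ggattctATTTATTTATTTAcgtttga
FOS (chr14:75282059-75282085, plus strand): gtgtttttaATTTATTTAttaagatgg
TIPARP, which represses aryl hydrocarbon receptor signalling, had 10 copies of ATTTA and 2 of TTATTTATT in its 3' UTR. ZFP36, itself a protein that binds such elements and promotes decay, had 5 and 1. A match is a description of the sequence and does not show that the site acts in these cells.

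All 19 immediate early genes tested fell, with a median of -2.79 and quartiles of -4.51 and -2.31. Immediate early genes are switched on by growth factors without new protein synthesis, and most encode transcription factors. EGR1 had 11.7 and 7.70 at 0 h and 0.265 and 0.260 at 3 h, while FOSL1, an AP-1 subunit near the middle of the class, fell by 2.73 from 16.8 and 15.6 to 2.71 and 2.19. SRF, the factor that drives many immediate early promoters, lost least of them, with 67.7 and 61.4 at 0 h and 42.3 and 41.4 at 3 h (64.9% ± 0.927 left). FOS was too low at 3 h for a firm value. It had 80 and 98 reads at 0 h and 2 and 0 at 3 h. This was a ratio of 1.38% of the 0 h level with an exact 95% counting interval of 0.165% to 5.04%. As FOS was the lowest of the class, setting it at a floor of 3 reads could not move the class median of -2.79.

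Feedback inhibitors of MAPK signalling had a median close to that of the immediate early genes, a difference that was not tested. All 14 MAPK phosphatases, Sprouty proteins and related inhibitors tested fell (median -2.71), from DUSP6 at -5.75 to DUSP14 at -1.21. SPRY4, which blocks receptor tyrosine kinase signalling upstream of RAS, stood near the median with 39.4 and 33.5 at 0 h and 5.78 and 5.30 at 3 h. ERRFI1, an inhibitor of the EGF receptor, was the most abundant of those named and went from 188 and 147 to 15.5 and 15.1. Among early targets of BMP, TGF-beta and Notch signals, 14 of 15 fell (median -2.46) and HES4 did not pass the test, at -0.21 (SE 0.12). ID1, ID2 and ID3, which block basic helix-loop-helix factors, fell, at -3.72, -4.11 and -3.12, and the Notch target HES1 fell by 4.37, whereas its relative HES6 fell by 0.36, a call that was lost without the first 3 h library (-0.22).

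Of 13 Wnt feedback genes 11 fell (median -1.03), and HepG2 is known to carry an activated beta-catenin. AXIN2, the scaffold of the beta-catenin destruction complex, went from 53.02 and 49.7 to 7.96 and 6.92. NKD1 was more abundant and lost less, from 566 and 489 to 258 and 259. NOTUM, a secreted enzyme that inactivates Wnt ligands, did not pass the test, with 188 and 172 at 0 h and 199 in both 3 h libraries. DKK4 also did not pass. Of 18 NF-kB feedback genes and chemokines, 17 fell (median -1.25), led by NFKBIA at -5.53, and NFKBIB, a second inhibitor of the same kind, stood at 0.08 (SE 0.11). The 2 inhibitors differed in loss by the whole range of the class. Of 24 targets of p53, 21 fell (median -1.13), with PLK2 at -3.91, CDKN1A, the cell cycle inhibitor p21, at -2.06 and FDXR at 0.03 (SE 0.092). Of 16 members of the BCL2 family 12 fell (median -0.42), and the antiapoptotic MCL1 went from 141 and 123.2 to 24.5 and 23.99, while proapoptotic BAK1 kept 79.1% ± 5.07, a fall that did not pass without the first 0 h library (-0.26) or the first 3 h library (-0.27).

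Transcription factors that define the hepatocyte fell as a class, which the secreted products of the same cell did not. All 24 hepatocyte factors tested fell, with a median of -2.09 and quartiles of -2.99 and -1.17. FOXA2, a pioneer factor, went from 52.6 and 46.3 to 3.82 and 3.53, and NR0B2 (SHP), a corepressor of bile acid synthesis, from 18.4 and 15.1 to 1.03 and 0.757. XBP1, the splicing-activated factor of the unfolded protein response, was abundant and went from 506 and 450 to 110 and 107. HNF4A, which sits high in the hepatocyte network, lost less and went from 265 and 225 to 151 and 152 (61.9% ± 0.356 left).

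The largest class, 399 genes named ZNF, lost RNA almost without exception. In it 387 genes fell and 12 did not pass, a share of 97.0% against the 61.3% of all genes. The median was -1.82 and the quartiles -2.53 and -1.21, so that the median member kept 28.2%. ZNF503, at -5.98, lost most, ZNF267 stood near the median at -1.82 and ZNF358, at 0.25 (SE 0.13), was the highest of those whose mean CPM reached 5. All 14 KLF and SP factors fell as well (median -2.13), from KLF10 at -4.38 to SP2 at -0.57, as did all 21 homeobox genes (median -1.78) and all 17 clock genes (median -1.42). BHLHE40 led the clock genes with 60.1 and 41.5 at 0 h and 1.84 and 1.81 at 3 h, whereas NPAS2 kept 77.2% ± 2.29. In the MYC and MAX network 7 of 11 fell, 63.6% and so near the 61.3% of all genes. MLXIPL (ChREBP), the glucose-sensing factor of liver, rose from 97.0 and 88.9 to 121 and 125. MLXIPL rose by 0.40 (SE 0.084, adjusted p = 4.12e-06 in edgeR), while MYC of the same network was the lowest at -5.18.

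**Figure D2:**
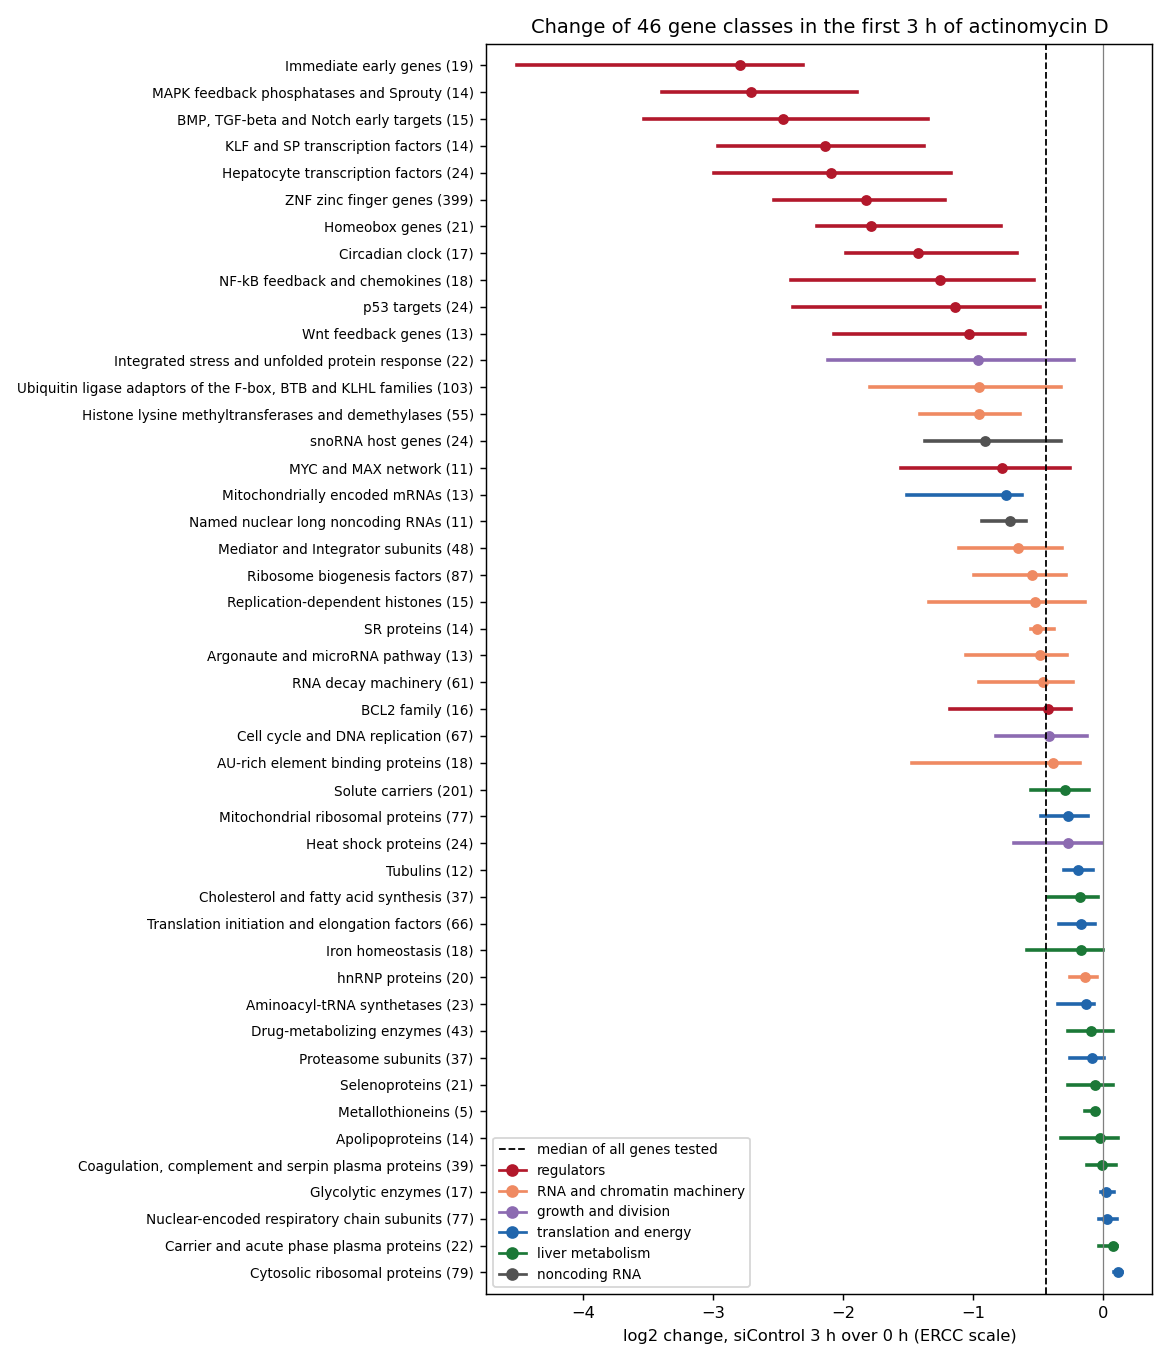
Median (points) and quartiles (lines) of the log2 change from siControl 0 h to 3 h for 46 gene classes, coloured by field, with the number of genes tested in parentheses and the median of all genes as a dashed line. Regulators fill the top of the plot down to -2.79, while ribosomal, respiratory, glycolytic and plasma protein classes at the bottom lie between -0.02 and 0.12.

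Proteins that bind and degrade RNA lay near the median of all genes, with single fast members. Of 18 proteins that bind AU-rich elements or related signals 12 fell (66.7%, near the 61.3% of all genes, median -0.38). The 18 ran from ZFP36 at -4.84 to YBX1 at 0.14 (SE 0.079). YBX1 is a cold shock protein whose 3 h libraries had 1561 and 1543 against 1512 and 1297. Of 61 decay factors 44 fell (72.1%, median -0.46). BTG1, an activator of the deadenylase, went from 10.2 and 7.85 to 0.633 and 0.721, whereas LSM5, a subunit of the ring that binds shortened tails, had 58.7 and 51.6 at 0 h and 60.3 and 59.5 at 3 h. In the microRNA pathway 10 of 13 fell (76.9%, median -0.48). The GW182 scaffolds TNRC6A, TNRC6B and TNRC6C fell, at -1.05, -1.24 and -1.38, and the slicer AGO2 by 0.55, while AGO1, XPO5 and DROSHA did not pass the test.

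Splicing factors of the SR group moved within a narrow band. Of 14 tested, 13 fell, with quartiles of -0.55 and -0.37 around a median of -0.50, and SRSF9, at -0.06 (SE 0.085), did not pass. SRSF3 went from 197 and 170 to 119 and 116. The 20 hnRNP proteins lost less (median -0.14, 7 fell, 4 without the first 0 h library). HNRNPF fell by 0.74, and HNRNPA1 was at 1276 and 1088 at 0 h and 1240 and 1215 at 3 h. Both SR and hnRNP proteins bind nascent RNA and steer splicing. The hnRNP median lay 0.30 ± 0.0096 (SD over the 4 pairs of libraries) above that of all genes. The SR median was not resolved from that of all genes, at -0.07 ± 0.031 with a range over the pairs from -0.07 to 0.0043. Here and below, the pairs share libraries and are not independent. Their SD leaves out the spread over the members of a class.

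Enzymes and adaptors that act on chromatin and protein turnover lost more than the median gene. Of 55 histone lysine methyltransferases and demethylases 50 fell (median -0.95), with KDM6A at -2.68 and EZH1 at -0.07 (SE 0.12). Of 103 F-box, BTB and KLHL adaptors of ubiquitin ligases 81 fell (median -0.96), and FBXO5 (EMI1), which restrains the anaphase-promoting complex, kept 8.27% ± 0.133. Of 48 Mediator and Integrator subunits 40 fell (median -0.65), with the Integrator subunit INTS5 going from 10.3 and 10.1 to 0.956 and 0.910 and the Mediator subunit MED24 not passing at 0.11 (SE 0.085). Of 87 ribosome biogenesis factors 73 fell (median -0.54), among them WDR43, from 200 and 175 to 43.6 and 40.9.

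Cell cycle genes fell about as much as all genes did (45 of 67, 67.2%, median -0.42), with E2F3 at -2.60, AURKB at -0.42 and TYMS at 0.09 (SE 0.082). The genes of the stress responses split. Of 22 in the integrated stress and unfolded protein responses 19 fell (median -0.96). DDIT4 kept 1.88% ± 0.591, while PDIA4, a chaperone of the endoplasmic reticulum, had 968 and 839 at 0 h and 985 and 974 at 3 h. Of 24 heat shock proteins and their factors 15 fell (62.5%, near the 61.3% of all genes, median -0.27). Without the first 0 h library 10 of the class fell. DNAJB1, the inducible cochaperone of HSP70, went from 67.7 and 59.8 to 4.91 and 4.39, and TRAP1, the mitochondrial HSP90, was at 0.12 (SE 0.082). Replication-dependent histones, whose mRNAs end without a poly(A) tail, were scarce after poly(A) selection, and 6 of 15 fell (median -0.52).

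Transcripts that make protein and energy formed the stable end. Of 79 cytosolic ribosomal proteins 2 fell, 8 rose and 69 did not pass, with a median of 0.12, quartiles of 0.08 and 0.15, and a distance of 0.56 ± 0.0074 (SD over the 4 pairs of libraries) above all genes. RPL11 had 432 and 383 at 0 h and 441 and 445 at 3 h, and RPL28, the highest of the class, had 361 and 321 and then 400 and 393. The median lies within the 0.19 by which the 0 h libraries differed, and the rises were not stable to single libraries. The 8 rises were 47 without the first 0 h library, 1 without the second 3 h library and no gene of the class passed as a rise without the second 0 h or the first 3 h library, where RPL28 was at 0.13 and 0.20. The 2 that fell, RPL36A at -2.99 and RPS10 at -1.41, were looked up after their values were seen. Ribosomal protein genes have many processed copies, so that their counts are uncertain. With TMM 76 of the 79 rose, beside the shift of 0.45 for all genes.

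Nuclear-encoded subunits of the respiratory chain (77 tested, 5 fell, 1 rose, median 0.03) and glycolytic enzymes (17 tested, 1 fell, 1 rose, median 0.03) were like the ribosomal proteins. The 5 respiratory falls were NDUFV2, NDUFV3, NDUFA11, UQCRFS1 and UQCR11, all but NDUFV3 looked up after their values were seen. NDUFV2 and NDUFA11 were low, with a mean CPM of 0.88 and 4.4. The rise was COX6C at 0.23. Without the first 0 h library 2 respiratory genes fell and 12 rose, without the second 12 fell, and without the second 3 h library 3 fell. COX6C did not pass without the second 0 h library (0.14) or the first 3 h library (0.21). UQCRFS1 (-0.22), UQCR11 (-0.13) and NDUFA11 (-0.48) did not pass without the first 0 h library, nor did UQCR11 (-0.31) without the first 3 h library or UQCR11 (-0.24) and NDUFA11 (-0.46) without the second. HK2, the inducible hexokinase, was the glycolytic fall, from 134 and 110 to 69.0 and 66.8, and muscle enolase ENO3 the rise, at 0.21 (SE 0.095), which did not pass without any 1 of the 4 libraries (0.20 to 0.22). GPI, the second enzyme of the pathway, had 147 and 137 at 0 h and 149 and 140 at 3 h. Proteasome subunits (14 of 37 fell, median -0.08), aminoacyl-tRNA synthetases (10 of 23, median -0.13), translation factors (28 of 66, median -0.17), tubulins (5 of 12, median -0.19) and mitochondrial ribosomal proteins (43 of 77, median -0.27) followed. Each of these medians is higher than that of all genes. Under TMM, which shifted the median of all genes by 0.45, each of them therefore turns positive. Without the first 0 h library the falls were 3, 6, 18, 3 and 33 in the same order, and without the second 16, 13, 41, 7 and 52. Without the first 3 h library they were 7, 9, 24, 3 and 38, and without the second 8, 6, 23, 3 and 35.

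The 13 mRNAs encoded in mitochondrial DNA all fell, unlike the nuclear genes for the same complexes. Their median was -0.75 and they spread widely. MT-CYB, the cytochrome b of complex III, went from 2315 and 2048 to 480 and 459 (21.5% ± 0.679 left), and MT-ND2 kept 21.9% ± 0.596. MT-CO1, the catalytic subunit of complex IV, was the most abundant of them and went from 10179 and 8606 to 6558 and 6464 (69.3% ± 0.709 left), and MT-ND4 kept 73.9% ± 0.540. These transcripts are cut from long polycistronic precursors, and MT-CYB and MT-ND2, which differed by less than their SD, lay apart from MT-CO1 and MT-ND4 by far more than the spread between libraries. The ribosomal RNA MT-RNR1 moved the other way, from 34.6 and 27.8 to 64.4 and 64.0, a rise of 1.04 (SE 0.090). Its RNA carries at most a short poly(A) tail, and the libraries were made from poly(A)-selected RNA.

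**Figure D3:**
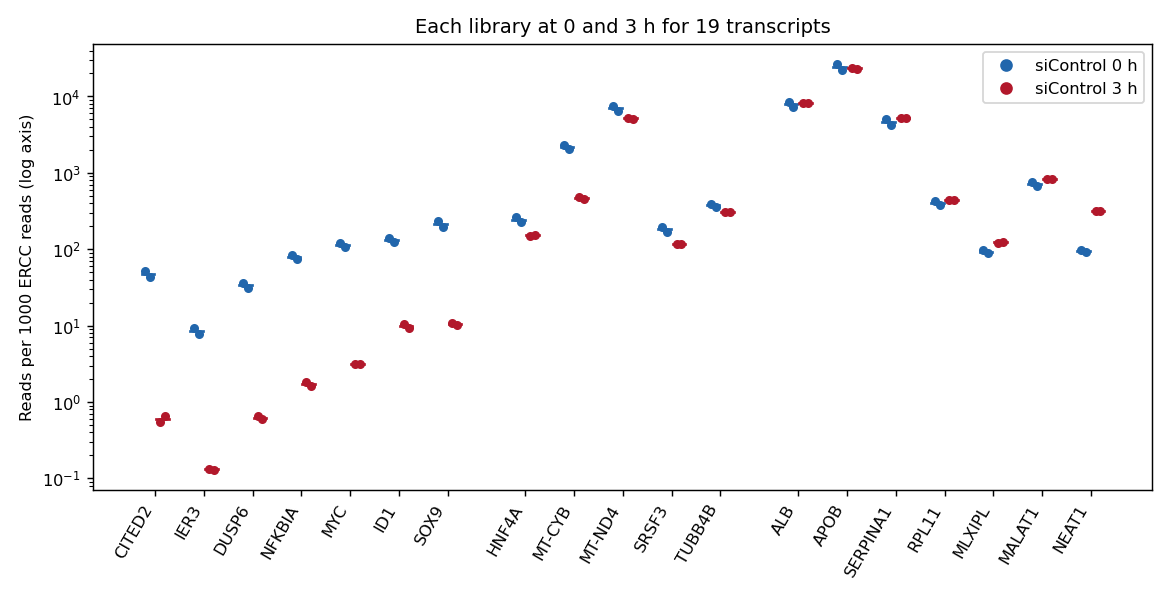
Reads per 1000 ERCC reads (log axis) in each library at 0 h (blue) and 3 h (red) for 19 transcripts, with short bars for the means. The 7 transcripts on the left dropped to between 1.27% and 7.60% of their 0 h mean, those in the middle to between 21.5% and 82.1%, and those on the right stood near or above it, up to 332% for NEAT1.

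Plasma proteins, the main product of a hepatocyte, were among the most stable messages. Of 22 carrier and acute phase proteins 2 fell and the median was 0.08. ALB, albumin, had 8377 and 7388 at 0 h and 8240 and 8281 at 3 h (105% ± 0.367), AFP, the fetal counterpart of albumin, 8968 and 7735 and then 8899 and 8884, and TTR, the carrier of thyroxine and retinol-binding protein, 39.5 and 32.01 and then 38.7 and 37.9. For all of these the 3 h libraries lay between the 0 h libraries. The exception was HAMP, hepcidin, the hormone that limits iron export, which went from 8.65 and 9.57 to 1.27 and 1.17 (13.4% ± 0.736 left). The second fall was FGL1, looked up after its value was seen, at -0.53. Without the first 0 h library 9 genes of the class rose.

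Of 39 coagulation, complement and serpin genes 5 fell and 2 rose (median -0.01). SERPINA1, the main inhibitor of neutrophil elastase, had 5032 and 4236 at 0 h and 5221 and 5307 at 3 h, a rise of 0.18 (SE 0.077, adjusted p = 0.0289 in edgeR), and SERPINC1, antithrombin, was the other. Without the second 0 h library they stood at 0.07 and 0.13 and did not pass, nor did SERPINA1 (0.20 and 0.17) or SERPINC1 (0.16 and 0.23) without the first or the second 3 h library. The falls were MBL2 and, looked up after their values were seen, SERPINA3, SERPINA10, C5 and MASP2. SERPINA3 was at -2.12 but low, with a mean CPM of 3.1. Without the second 3 h library 2 of the class fell, where MASP2 stood at -0.24, C5 at -0.25 and SERPINA10 at -0.35. SERPINA10 also did not pass without the second 0 h library (-0.26) or the first 3 h library (-0.36), and without the first 0 h library MBL2 stood at -0.17 and did not pass, while 8 rose. Of 14 apolipoproteins 3 fell and 2 rose (median -0.02). APOB, the scaffold of very low density lipoprotein and the most abundant transcript of the class, had 26423 and 22412 at 0 h and 23448 and 23177 at 3 h. APOA1 and APOE rose by 0.17 and 0.18, less than the difference between the 0 h libraries, and stood at 0.08 each without the second 0 h library, where they did not pass. They also did not pass without the first 3 h library (0.17 and 0.18) or the second (0.18 for both). Without the second 0 h library 5 of the class fell. The falls were APOA5, which did not pass without the first 0 h library (-0.20), and the intracellular APOL2 and APOL6, of which APOL6 kept 42.7% ± 2.68. Of the apolipoproteins tested, APOL6 and APOL2 were the lowest.

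Most classes of metabolic genes lost less than the median gene. In cholesterol and fatty acid synthesis 17 of 37 fell (median -0.17). FDFT1, squalene synthase, had 224 and 194 at 0 h and 185 in both 3 h libraries, which did not pass (adjusted p = 0.0538 in edgeR). Of 201 solute carriers 110 fell (54.7%, against 61.3% of all genes, median -0.29) and 1 rose, SLC22A31, looked up after its value was seen. SLC22A31 stood at 0.17 without the second 0 h library and did not pass. SLC38A2, an amino acid transporter controlled by amino acid supply, went from 287 and 254 to 40.4 and 42.1. Of 43 drug-metabolizing enzymes 11 fell and CYP2W1 rose by 0.26 (median -0.09), against 0.19 without the second 0 h library and 0.25 without the first 3 h library, where it did not pass. Of 18 iron genes 8 fell (median -0.17), and ferritin heavy chain FTH1 had 1615 and 1432 at 0 h and 1664 and 1659 at 3 h. Of 21 selenoproteins 6 fell and GPX4, which reduces lipid peroxides, rose by 0.18 (median -0.06), against 0.09 without the second 0 h library and 0.16 and 0.20 without the first and the second 3 h library, where it did not pass. Falls among solute carriers, drug-metabolizing enzymes and selenoproteins were 69, 4 and 3 without the first 0 h library, and 7 of the drug-metabolizing enzymes fell without either 3 h library. Rises among solute carriers were 5 without the first 0 h library and 3 without the first 3 h library, and among drug-metabolizing enzymes 4 without the first 0 h library. The 5 metallothioneins ran from -0.47 to 0.01 and did not pass.

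Long noncoding RNAs (lncRNAs) had a lower median change than coding transcripts, with a similar share called as falls. A mean CPM of 5 was reached by 203 of the lncRNAs and 9521 of the coding genes, so the shares called rest on unlike read counts. Both 3 h libraries lay below both 0 h libraries for 808 of the 1011 lncRNAs and 8281 of the 11385 coding genes, against 72.2% of all genes tested. Of 1011 tested, 627 fell (62.0%) and 5 rose, with a median of -0.83, against 62.6% and -0.41 for 11385 protein-coding genes. The median distance from all genes was -0.39 ± 0.0175 for lncRNAs and 0.02 ± 0.0040 for coding genes (SD over the 4 pairs of libraries). The rises were NEAT1, MALAT1 and, looked up after their values were seen, ENSG00000267924, ENSG00000262663 and ENSG00000241860. ENSG00000262663 and ENSG00000241860 were low, with a mean CPM of 0.75 and 0.69. Without the second 3 h library ENSG00000262663 stood at 0.58, against 0.96 with all libraries, and did not pass, nor did it without either 0 h library (0.89 and 1.05). ENSG00000241860 did not pass without the first 0 h library (0.95) or the first 3 h library (0.81). The 5 largest falls named by rule were ENSG00000274979, SNHG12, HSD17B1-AS1, EMSLR and MIR34AHG, from -4.38 to -2.95. SNHG12 went from 18.1 and 16.3 to 1.46 and 1.77, and MIR34AHG, the host of miR-34a and a target of p53, from 15.2 and 14.3 to 1.66 and 2.12. Among snoRNA host genes, which are spliced to release small nucleolar RNAs, 18 of 24 fell (median -0.91), with SNHG1 at -0.86 and DANCR at -0.04 (SE 0.088). HSD17B1-AS1 is antisense to a gene, and the strand setting of the count was not given in the sources used here. Its reads could then not be told apart from those of its partner.

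Of 11 well known lncRNAs 8 fell (72.7%, against 61.3% of all genes), and the 2 nuclear scaffolds rose. NORAD, a cytoplasmic decoy of PUMILIO proteins, went from 285 and 237 to 86.5 and 84.7, and KCNQ1OT1, the imprinted antisense transcript, from 240 and 210 to 107 and 114. MALAT1, which sits in nuclear speckles, had 753 and 676 at 0 h and 842 and 835 at 3 h, a rise of 0.23 (SE 0.080), close to the 0.19 between the 0 h libraries, and without the second 0 h library it was at 0.16 and did not pass. NEAT1, the scaffold of paraspeckles, went from 98.1 and 90.9 to 313 and 314. This was 332% ± 0.387 of the 0 h mean (SD of the 3 h libraries alone, n = 2). NEAT1 rose by 1.73 (SE 0.084, adjusted p = 4.92e-92 in edgeR). In the knockdown libraries, which share no library with these, it was at 2.15, 1.66 and 2.08 over the same interval. HULC did not pass the test. Processed pseudogenes, 279 of them, had a median of 0.03, and their reads can come from parent genes.

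The highest coding changes were small next to the falls. The 10 highest among coding genes whose mean CPM reached 5 ran from 0.37 for SNX32 to 0.60 for CAPN12, and all 10 passed the test. Without the second 0 h library SNX32 (0.29), KYAT1 (0.22), NRBP2 (0.25), MAMDC4 (0.34) and COL7A1 (0.33) did not pass, and without the second 3 h library SNX32 (0.21), KYAT1 (0.37) and NRBP2 (0.23) did not, nor did KYAT1 without the first (0.42). CAPN12, a calpain, had 4.06 and 3.79 at 0 h and 6.25 and 5.64 at 3 h. MAMDC4, RCN3, COL7A1, MAN2C1, CHRD, KYAT1 and NRBP2 were the others beside MLXIPL. COL7A1, the anchoring fibril collagen, had 5.47 and 4.74 at 0 h and 7.03 and 6.73 at 3 h. Their exon numbers ran from 7 to 119. Reads outside annotated features fell over the same interval, from 74.1 and 67.1 per ERCC read to 32.6 and 33.3, which was the largest fall among the summary classes of the count.

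Transcript structure went along with the loss across 11361 coding genes with an annotated 3' UTR. Genes were ranked by change and cut into 10 groups of equal size. The group with the largest losses (1137 genes, at or below -1.80) had a median 3' UTR of 1623 bases, 5 exons and 313 coding bases per exon. The group with the least loss (1136 genes, at or above 0.04) had 446 bases, 9 exons and 115 coding bases per exon. Over 5 groups of genes ordered by coding bases per exon the median change went from -0.18 in the lowest to -1.32 in the highest, and without the ZNF genes, whose zinc fingers lie in 1 long exon, from -0.18 to -1.15. Among genes with at least 50 CPM at 0 h it went from -0.08 to -0.75. Transcripts with 1 exon (187) and 2 exons (452) had medians of -1.30 and -1.32, and those with 6 or more had -0.37. Over 5 groups ordered by 3' UTR length it went from -0.17 in the shortest to -0.61 in the longest. Spearman's rho with the change was -0.492 for coding bases per exon, -0.268 for 3' UTR length and 0.244 for the level at 0 h across these genes, which share libraries and are not independent replicates.

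**Figure D4:**
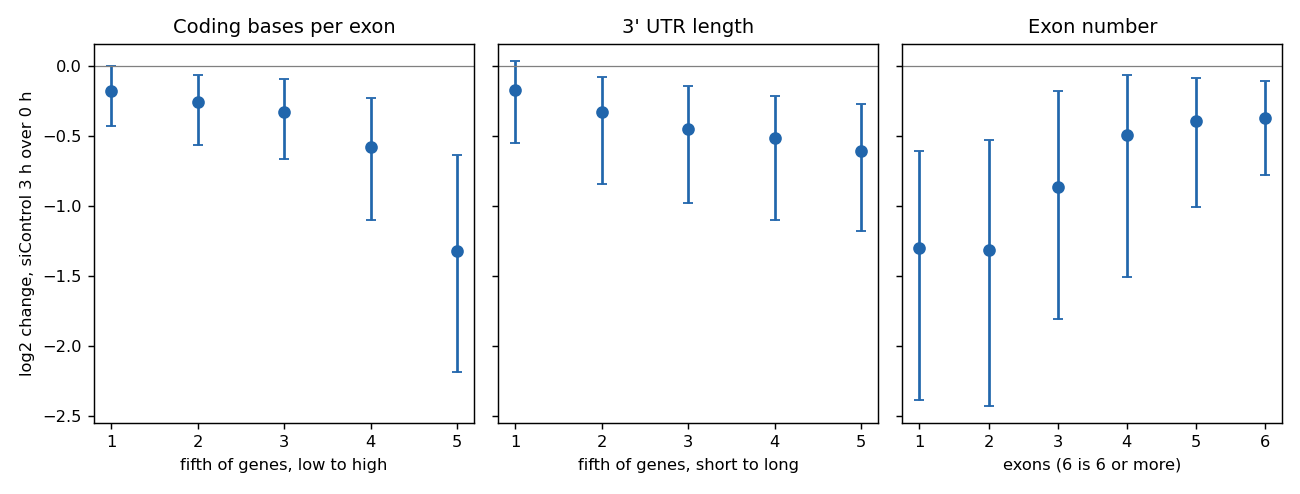
Median (points) and quartiles (bars) of the log2 change from siControl 0 h to 3 h for coding genes split by coding bases per exon, by 3' UTR length and by exon number. The median falls from -0.18 to -1.32 over the 5 groups of coding bases per exon and from -0.17 to -0.61 over those of 3' UTR length, and is lowest, at -1.30 and -1.32, for 1 and 2 exons.

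AU-rich words were rarer in the group with the least loss, and did not peak in the group with the largest losses. TTATTTATT was present in 13.7% of the 3' UTRs of that group, 2.73% of those of the group with the least loss and 9.40% of all. ATTTA was present in 82.5%, 42.1% and 72.8%. The group next in loss held TTATTTATT in 14.8% and ATTTA in 83.4%. The words were searched on the transcript strand, and every TTATTTATT holds an ATTTA. A word for PUMILIO proteins was present in 40.4% of the group with the largest losses and 8.36% of that with the least loss. The lower share in the group with the least loss was therefore not particular to the AU-rich words. The median GC content of the 3' UTRs was 40.3% and 50.8% in the same groups, and its part in these shares was not tested. Longer 3' UTRs hold more of any word, so changes were also compared within 4 groups of length. In the shortest group the median change was -0.63 for 43 genes with TTATTTATT and -0.19 for 2798 without it, and in the longest it was -0.72 for 603 genes and -0.57 for 2237. Loss was also larger for genes of low level, with medians of -0.60 in the lowest and -0.19 in the highest of 5 groups by CPM at 0 h.

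The interval from 3 to 6 h, which shares its starting libraries with the end of the first, served to ask whether the early loss went on at the same pace. The change per 3 h was larger in the first interval for 1435 genes (10.9%) and larger in the second for 216 (1.64%) in edgeR, while the medians of all genes were -0.44 and -0.42. The second count rested on single libraries, since it was 652 and 96 without the first and the second 0 h library, 38 and 63 without the first and the second 3 h library, and 409 and 85 without the first and the second 6 h library. The first count was 955 without the second 3 h library. The fast classes held many of the first kind. Of the immediate early genes 12 of 19 and of the ZNF genes 214 of 399 passed in that direction, with class medians of -0.78 and -0.58 in the second interval. By adjusted p MYC (-5.18, then -0.84), SOX9 (-4.36, then -1.12) and NEDD9 (-4.62, then -0.92) led. XBP1 kept its pace, at -2.14 and -2.20. The 3 leading the other way were NEAT1 and MT-RNR1, which rose and then stood at -0.54 and -0.30, and the pseudogene YBX1P1.

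Class medians of the first 3 h were next set beside those of the knockdown cells, each measured against its own 0 h libraries. The medians of all genes were -0.37, -0.48 and -0.37 in siIGF2BP1, siIGF2BP2 and siIGF2BP3 cells. The immediate early genes stood at -2.73, -2.60 and -2.73, the ZNF genes at -1.68, -1.75 and -1.69, the hepatocyte factors at -1.97, -2.07 and -1.96 and the cytosolic ribosomal proteins at 0.11, 0.03 and 0.10. Across the 13136 genes the change in control cells correlated with that in the 3 knockdowns with r of 0.943, 0.952 and 0.943, a description over genes whose libraries were made the same way. Against the mean of the 3 knockdowns, 4 genes (0.0305%) lost more in control cells and 2 (0.0152%) had a higher change there in edgeR, and 400 had an unadjusted p under 0.05. The 2, SMN1 and YBX1P1, rose in control cells and were far apart between the 3 h libraries. SMN1 has a near-identical copy, SMN2, and YBX1P1 is a processed pseudogene of YBX1, so that their counts are uncertain. The single class median farthest from that of control cells was that of the NF-kB feedback genes and chemokines in siIGF2BP3 cells. In the 3 knockdowns this class stood at -1.16, -0.94 and -0.71 against -1.25, and the homeobox genes stood at -1.45, -1.54 and -1.40 against -1.78, differences that were not tested.

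**Figure D5:**
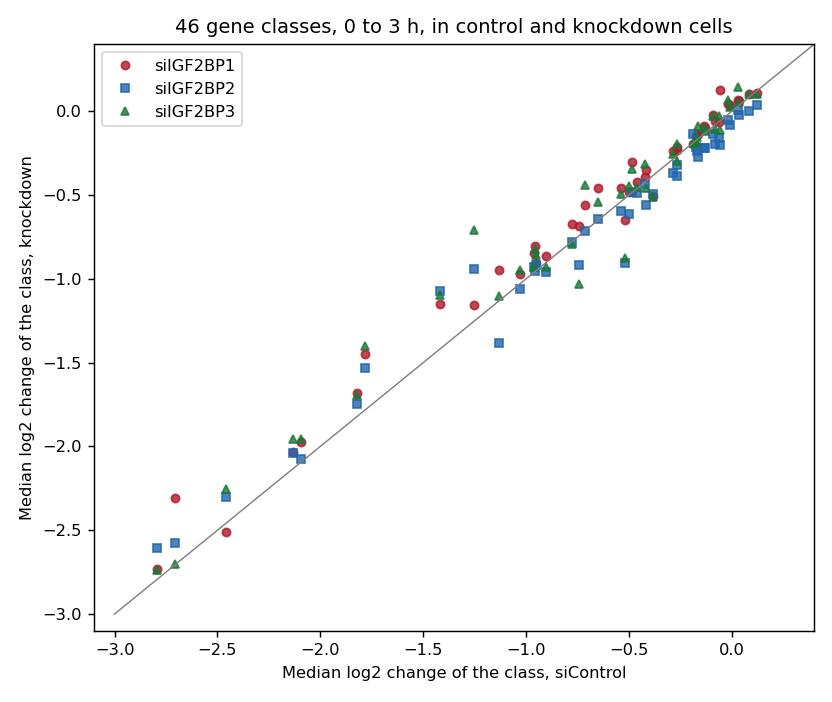
Median log2 change from 0 to 3 h of 46 gene classes in siControl cells (horizontal axis) and in the cells of each knockdown (vertical axis), with the line of equality in grey. Most classes lie near the line, from immediate early genes at -2.79 in control and -2.60 to -2.73 in the knockdowns to ribosomal proteins at 0.12 and 0.03 to 0.11.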

How the data were processed

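RNA-seq of poly(A)-selected RNA from HepG2 cells was counted per gene by the authors, who trimmed reads with Trimmomatic 0.39, aligned them with HISAT2 2.1.0 to hg38 and counted them with HTSeq on GENCODE 29. The deposited values are raw counts with rows for ERCC RNA. Strand and multi-mapping settings of the count are not given in the sources used here. The HTSeq summary rows, 13.6% to 17.1% of all reads over the 24 libraries, were left out of totals and tests.

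Genes with at least 1 CPM in at least 2 of 24 libraries were fitted with edgeR 4.0.16 (R 4.3.3) by its quasi-likelihood test on 12 group means, with the ERCC sum as the scale of each library and Benjamini-Hochberg adjustment over 13136 genes. The prior degrees of freedom came out infinite, so that the spread of a gene was that of the common trend. In data simulated for the 0 to 3 h comparison over 13136 genes, 50 genes were changed at each size. Of changes of -1 and 1 on the log2 scale 100% were called, of -0.5 90% and of 0.5 78%. The changed genes were drawn from those with a mean CPM of at least 5 in the 4 libraries. Counts were drawn from the common trend on the exact ERCC scale. The shares therefore do not cover genes of lower level, spread of a gene around the trend or error of the scale. Three-prime UTRs, exons and biotypes came from GENCODE 44 on the same build. Alternatives included DESeq2 1.42.0, other scales, other filters, a replicate block and leaving out each library.

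Genes were named by rule: the 15 largest coding falls and 5 largest lncRNA falls that passed the test at a mean CPM of at least 5 with both 3 h libraries below both 0 h libraries, the 10 highest coding changes, the lowest, median and highest member of each of 46 lists (any member for lists of up to 15), and the 3 smallest adjusted p in each direction of the other contrasts. Genes of the Y chromosome and XIST were not named, and some genes that the rule names are not reported here. The members and lists were chosen with earlier results of these data known. The labels do not say that replicates came from separate cultures, so p-values measure only the spread between libraries of the same group. That spread was estimated from all 24 libraries and taken from the common trend over genes, not from a gene's own values in the 4 libraries. With 75293 or more ERCC reads in the 0 h libraries, counting error of the scale was at most 0.364% there, and intervals cover counting error only.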

Additional observations from a re-analysis of the deposited data

Results flagged for a closer look

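The change from 0 to 3 h in siControl cells differed from the mean change in the 3 knockdowns for 6 genes in a test of the difference itself (edgeR, adjusted over 13136 genes), with differences given on the log2 scale as control less knockdown. In 4 of them control cells lost more.

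PPP2R2C, a regulatory subunit of protein phosphatase 2A, had 6.28 and 4.96 reads per 1000 ERCC reads at 0 h and 0.294 and 0.166 at 3 h. It changed by -4.63 in control cells and by -2.82, -2.66 and -2.38 in siIGF2BP1, siIGF2BP2 and siIGF2BP3 cells, a difference of -2.02 (SE 0.35, adjusted p = 5.58e-05 in edgeR). The adjusted p ran from 4.35e-05 to 0.209 over 10 alternatives, and 8 of them passed. Without the second 3 h library it was 0.209, and the other miss was TMM at 0.0816.

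ZNF503, a zinc finger repressor that was also among the 15 largest falls, differed by -1.25 (SE 0.28, adjusted p = 0.0215 in edgeR), with -5.98 in control cells and -4.64 (siIGF2BP1), -5.17 (siIGF2BP2) and -4.39 (siIGF2BP3). Its adjusted p ran from 0.0126 to 1.00 over 10 alternatives, of which 7 passed, and was 0.189 without the first 0 h library and 1.00 without the second 3 h library.

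ZNF678 changed by -2.48 in control cells and by -1.29, -1.55 and -1.44 in the knockdowns, a difference of -1.05 (SE 0.23, adjusted p = 0.0163 in edgeR). Its adjusted p ran from 0.00851 to 0.732 over 10 alternatives, of which 6 passed, and was 0.216 without the first 0 h library, 0.732 without the first 3 h library and 0.103 without the second.

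SMIM15 changed by -1.59 in control cells and by -0.86, -1.01 and -1.02 in the knockdowns, a difference of -0.63 (SE 0.14, adjusted p = 0.0137 in edgeR). Its adjusted p ran from 0.00301 to 0.732 over 10 alternatives, of which 7 passed, and was 0.189 without the first 0 h library, 0.732 without the first 3 h library and 0.101 without the second.

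The other 2 were higher in control cells than the mean of the 3 knockdowns, and in both the 3 h libraries lay far apart. SMN1 changed by 1.16 in control cells and by -0.50 (siIGF2BP1), -1.08 (siIGF2BP2) and 1.41 (siIGF2BP3). It therefore rose more in siIGF2BP3 cells than in control cells. YBX1P1 changed by 1.48 in control cells and by 0.18, 0.10 and 0.55 in the knockdowns, in the same order. SMN1, whose near-identical copy SMN2 makes its count uncertain, had 1.62 and 2.04 at 0 h and 6.03 and 2.32 at 3 h, a difference of 1.22 (SE 0.21, adjusted p = 3.12e-05 in edgeR). YBX1P1, a processed pseudogene of YBX1, had 7.08 and 3.84 at 0 h and 5.69 and 24.1 at 3 h, a difference of 1.20 (SE 0.15, adjusted p = 1.49e-11 in edgeR). The adjusted p of SMN1 ran from 5.95e-10 to 1 and that of YBX1P1 from 1.14e-24 to 1 over 10 alternatives, of which 6 passed for each. SMN1 did not pass without the first 3 h library and YBX1P1 did not pass without the second (1.00), and neither passed with a robust prior, which was chosen after seeing the data.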

How the results depend on the processing

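The scale decided the balance of falls and rises. The 8053 falls were 4508 under TMM and 4526 under DESeq2 with its own size factors, and 6496 to 8638 when 1 of the 4 libraries was left out. The 119 rises were 4565 under TMM, 2632 by library size, 4490 under DESeq2 with its own size factors, 77 with no filter, 46 in a fit of the 4 libraries alone and 40 to 360 with 1 library left out. Losses larger from 0 to 3 h (1435 genes) ranged from 955 to 1606 with 1 library left out, and losses larger from 3 to 6 h (216) were 2388 under TMM, 1306 by library size and 38 to 652 with 1 library left out. Against the knockdowns the 4 genes lower in control cells were 1 under TMM, 25 by library size and 0 to 25 with 1 library left out, and the 2 higher ones were 0 under TMM, by library size and with a robust prior, and 1 to 2 with 1 library left out. The robust prior, and other scales and filters for these last contrasts, were chosen after seeing the data.

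With the replicate block the rises were 185, the losses larger from 3 to 6 h 385 and the genes lower in control cells than in the knockdowns 7. Deviations of libraries with the same number correlated with r of 0.016, 0.016 and 0.034 between the time points, so the numbers did not pair the libraries.

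Named genes that changed sign under TMM and under DESeq2 with its own size factors were AGO1 (0.27 and 0.26), APOA5 (0.12 and 0.11), APOB (0.39 and 0.38), AURKB (0.035 and 0.028), BAK1 (0.12 and 0.11), C5 (0.15 and 0.15), DANCR (0.41 and 0.40), DROSHA (0.32 and 0.31), EZH1 (0.38 and 0.37), FDFT1 (0.28 and 0.27), HES4 (0.24 and 0.24), HES6 (0.095 and 0.088), MASP2 (0.15 and 0.15), MBL2 (0.084 and 0.078), MT-ND4 (0.021 and 0.014), NPAS2 (0.084 and 0.078), SERPINA10 (0.088 and 0.082), SRSF9 (0.40 and 0.39), UQCR11 (0.18 and 0.17), UQCRFS1 (0.14 and 0.13) and XPO5 (0.30 and 0.29). By library size APOB (0.19), DANCR (0.21), DROSHA (0.12), FDFT1 (0.082), SRSF9 (0.20) and XPO5 (0.10) did so. The distance of a list's median from that of all genes cannot respond to another scale, which shifts all genes alike. With a CPM of at least 5 it moved by more than its SD for 28 of 50 lists and biotypes.

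With 2 libraries a group, changes below the 0.19 between the 0 h libraries are not resolved, and every fold change rests on 1 spike-in total per library. Loss per cell was not measured.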
